A study of Homo sapiens with 12 samples.

Results

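RNA crosslinked to eIF3a, the subunit that serves as a scaffold of the human translation initiation factor eIF3, made up 375 of the 1477 clusters in the deposited PAR-CLIP table. They were chosen as every row of that table whose subunit was given as a, whatever its gene, annotation or read count, and they fell in 328 of the 479 genes of the table. The comparison set was the 1102 clusters of the other 3 subunits, 298 for eIF3b, 403 for eIF3d and 401 for eIF3g. A cluster is a short stretch of the genome where reads of the crosslinked RNA pile up, and each has a count of reads and a count of T-to-C conversions.

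PAR-CLIP feeds cells 4-thiouridine, a uridine analog that ultraviolet light bonds to a protein touching the RNA, and that reverse transcription then copies so that C is read where T was encoded. Per the labels' protocols, 293T cells, derived from human embryonic kidney and carrying the SV40 large T antigen, received 100 µM 4-thiouridine for 14 h and were crosslinked at 0.15 J per square cm. All 4 groups share this line, this treatment and a pull-down with an antibody against eIF3b, and they differ in the protein-RNA complex that was excised from the gel after RNase T1. The 12 libraries were 3 for each of eIF3a, eIF3b, eIF3d and eIF3g, with no control library among them. The table has no replicate column, so each value is 1 pooled value per cluster and subunit with no SD, and no difference could be set against a spread between libraries. Nothing in the labels says whether replicates were separate cultures. No value of the table checks which protein the RNA of a list was bound to.

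eIF3 is the largest of the initiation factors. It binds the small ribosomal subunit, brings it together with mRNA and helps it to scan the 5′ untranslated region (5′ UTR) for the start codon. eIF3a belongs to the structural core of the complex, eIF3b and eIF3g to a module at its edge, and eIF3d is a subunit that can contact the cap of some mRNAs.

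The eIF3a clusters held 15132 reads, with a median of 22 per cluster (quartiles 13 and 40, range 8 to 684), against a median of 21 (quartiles 13 and 40) in the other 3 lists. The list was steep at its head: the 5 strongest clusters held 17.5% of its reads, the 20 strongest 34.1% and the 50 strongest 50.8%. At its foot, 17 clusters sat at 8 reads, the lowest count in the table, so a locus with fewer reads is not listed for any subunit. The table counts only reads that fell inside clusters, so the depth of the libraries is unknown, and read counts of different subunits, where they stand side by side, are not amounts of bound RNA on 1 scale.

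The strongest eIF3a cluster lay in the 5′ UTR of BTG1, an anti-proliferative regulator (chr12:92539487-92539600, hg19, minus strand). It had 684 reads in eIF3a, against 372 for eIF3b, 2256 for eIF3d and 3109 for eIF3g, which made it rank 1 in the eIF3a list and rank 9, 3 and 5 in the others. The third, in the 5′ UTR of UBE2D2, a ubiquitin-conjugating enzyme (chr5:138941234-138941273, plus strand), had 554 reads, with 276, 589 and 199 in eIF3b, eIF3d and eIF3g. The fifth, in the 5′ UTR of DDX39B, an RNA helicase of mRNA export (chr6:31508375-31508402, minus strand), had 361 reads, with 665, 451 and 306. These 3 were among the 25 strongest clusters of every list.

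Other leading clusters were also in 5′ UTRs and in all 4 lists. MLF2 had 220 reads, PTGES3, a co-chaperone, 192, MARCKS, an actin-binding membrane protein, 172, TPT1, the translationally controlled tumour protein, 172, PPP3R1, the regulatory subunit of calcineurin, 166, and MORF4L2, a chromatin protein, 157. Further down stood the transcription factor JUN with 138 reads, the splicing factor U2AF2 with 136, the respiratory chain gene COX7C with 127 and C7orf55-LUC7L2 with 123. SNRPA, a protein of the U1 snRNP, had 141 reads at its start codon. JUN ranked 16 in eIF3a, against 36, 10 and 7 in eIF3b, eIF3d and eIF3g.

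The remaining leaders lay elsewhere. LIMCH1, an actin-associated protein, had 677 reads in an intron. The 3′ UTR of EIF3H, which encodes another eIF3 subunit, had 370. The long noncoding RNA LINC00613 had 272, the coding sequence of EIF3A itself 224, an intron of the centrosomal gene CEP85 144 and the 5.8S rRNA pseudogene RNA5-8SP2 132. LINC00613 (chr4:136833708-136833726, minus strand) ranked 6 in eIF3a but 201 in eIF3b with 13 reads and 382 in eIF3d with 9 reads, and no eIF3g cluster was there.

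By annotation, 254 eIF3a clusters were in 5′ UTRs, which is 67.7% (exact 95% interval 62.7 to 72.4), against 67.8% in the other lists together. The start codon held 15 clusters (4.0%), coding exons 42 (11.2%, 8.19 to 14.8), 3′ UTRs 8 (2.13%), introns 30 (8.0%) and noncoding RNA 26 (6.93%, 4.58 to 9.99). The other lists had 3.72% at start codons, 9.35% in coding exons, 1.81% in 3′ UTRs, 8.62% in introns and 8.71% in noncoding RNA. All of these lay within the eIF3a intervals. The intervals cover counting error of clusters only, and many clusters of the lists are the same sites.

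Weighted by reads, the lists looked different. The 5′ UTR held 65.0% of eIF3a reads, and 43.8%, 49.8% and 20.4% of eIF3b, eIF3d and eIF3g reads. Coding exons held 8.35% of eIF3a reads, and 31.6%, 29.1% and 1.51% in the same order. Noncoding RNA held 8.21% of eIF3a reads, and 8.57%, 11.5% and 62.8%. In eIF3a the share of reads was thus near the share of clusters in 5′ UTRs, while each of the other lists had a lower read share there than cluster share. Among the largest differences in reads, clusters in the EIF3A coding sequence had 382 reads in eIF3a, but 5464 for eIF3b and 6132 for eIF3d, and the clusters of the snoRNA host SNHG1 had 16234 reads in eIF3g and none was listed for eIF3a.

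**Figure D1:**
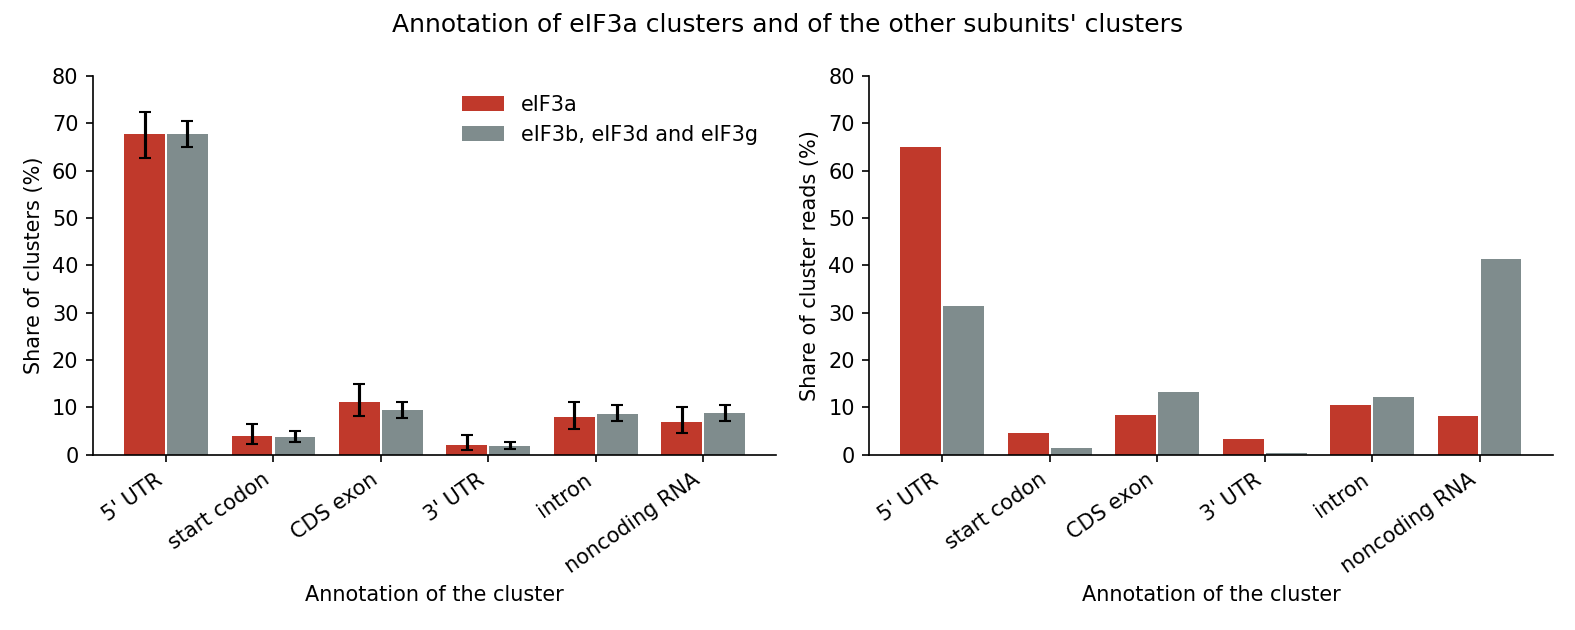
Share of clusters (left, with exact 95% intervals from counts of clusters) and share of cluster reads (right, no interval) by annotation, for eIF3a in red and for eIF3b, eIF3d and eIF3g together in grey. The cluster shares of 5′ UTRs are 67.7% and 67.8%, while the read shares are 65.0% and 31.4%.

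The typical strength of a cluster also varied with its annotation within eIF3a. Start codon clusters had a median of 40 reads, noncoding clusters 30, 5′ UTR clusters 21.5, 3′ UTR clusters 17.5, coding clusters 17 and intron clusters 14. In the other lists together the order differed, with 45 reads in noncoding RNA, 26 in introns, 21 at start codons, 20 in 5′ UTRs, 18 in coding exons and 13.5 in 3′ UTRs. Taken singly, the lists of eIF3b, eIF3d and eIF3g had intron medians of 25.5, 21 and 28 reads, each above the 14 of eIF3a. Introns were the weakest class by median in eIF3a, second to noncoding RNA in eIF3b and eIF3g, and below noncoding RNA, start codons and 5′ UTRs in eIF3d. Start codon clusters of eIF3a included SNRPA (141 reads), BIRC5, an inhibitor of apoptosis (88), and the histone genes HIST1H2AD (83), HIST1H2BO (60) and HIST1H1E (44).

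As annotated, the 26 noncoding clusters were 12 of long intergenic RNA, 7 of mitochondrial RNA and 2 of microRNA. The rest were 2 of miscellaneous RNA, 2 of the piwi class and 1 of rRNA. The long intergenic class took in RNU11, which RefSeq types as a small nuclear RNA. Clusters of other classes, among them that of MIR205HG in the long intergenic class, were not checked for overlap with microRNA genes. Both clusters annotated as microRNA were in the eIF3a and eIF3d lists only. The first lay over the miR-203a gene (chr14:104583807-104583827, plus strand) with 10 reads in eIF3a and 19 in eIF3d. The second lay over the miR-122 gene (chr18:56118320-56118341, plus strand) with 13 reads in eIF3a and 15 in eIF3d. The mature microRNAs of both genes are shown from RefSeq (GRCh38.p14), because the table names the gene and not the arm, and hg19 positions were not carried over to GRCh38. Capitals mark the seed, bases 2 to 8, with which a microRNA pairs to its targets, and the 4 seeds differ.
hsa-miR-203a-5p: aGUGGUUCuuaacaguucaacaguu
hsa-miR-203a-3p: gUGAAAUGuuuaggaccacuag
hsa-miR-122-5p: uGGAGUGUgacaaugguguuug
hsa-miR-122-3p: aACGCCAUuaucacacuaaaua

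An eIF3a cluster was counted as shared with another subunit where a cluster of that subunit overlapped it by at least 1 nt on the same strand. All 3 other subunits overlapped 168 eIF3a clusters (44.8%), which held 61.9% of the eIF3a reads. Any 2 of them overlapped 111 (29.6%), only 1 overlapped 79 (21.1%), and 17 had no overlap (4.53%, exact 95% interval 2.66 to 7.16). The same share was 5.37% of eIF3b clusters (16), 8.68% of eIF3d clusters (35) and 12.7% of eIF3g clusters (51). The eIF3a list thus had the smallest share of its own, but the eIF3b share lay within the eIF3a interval. The eIF3a share rose to 8.8%, 15.7% and 10.1% when eIF3b, eIF3d or eIF3g was left out of the comparison, so it depends on which lists it is set against.

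Of the eIF3a clusters, eIF3d overlapped 294 (78.4%, which is 73.0% of the eIF3d list), eIF3g 282 (75.2%, 70.3% of its list) and eIF3b 229 (61.1%, 76.8% of its list). Among clusters shared with a pair of subunits, eIF3d and eIF3g together were the commonest with 66, ahead of eIF3b with eIF3g at 27 and eIF3b with eIF3d at 18. Clusters shared with 1 subunit were 42 for eIF3d, 21 for eIF3g and 16 for eIF3b. Sharing followed the number of reads. Of the 136 clusters with 8 to 15 reads, 25% were overlapped by all 3 others, which was 39.8% of the 113 with 16 to 31, 64.6% of the 79 with 32 to 63 and 80.9% of the 47 with 64 or more.

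**Figure D2:**
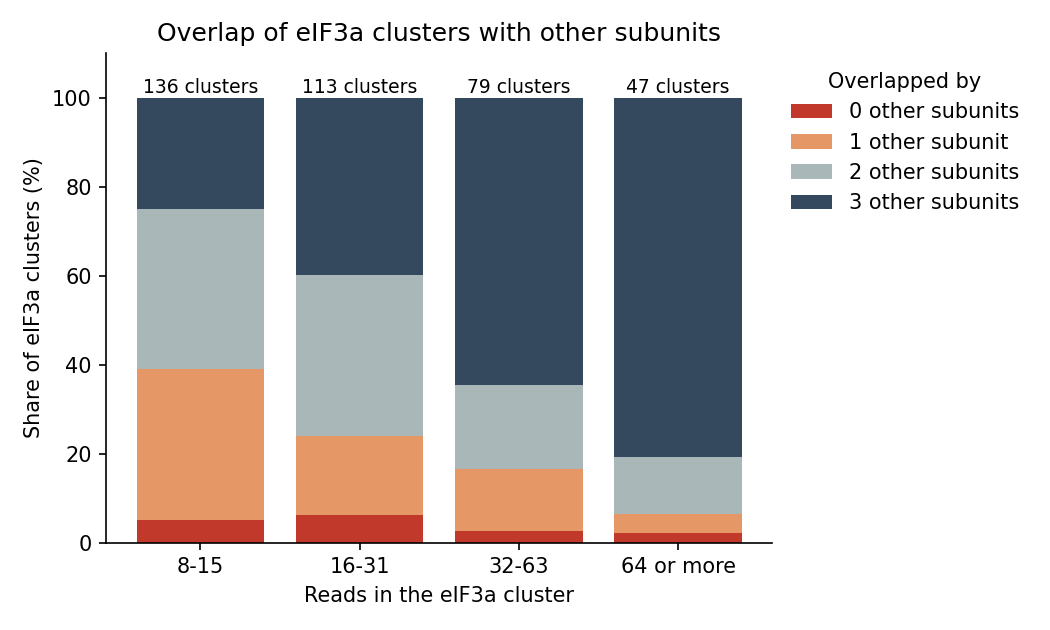
Share of eIF3a clusters (%) overlapped by 0, 1, 2 or 3 other subunits, by reads in the eIF3a cluster, with the number of clusters above each bar. The part overlapped by all 3 others is 25% at 8 to 15 reads and 80.9% at 64 reads or more.

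Where clusters overlapped, their borders were often the same. Both ends were identical at 109 of the 229 eIF3a clusters that eIF3b overlapped (47.6%), at 164 of 294 for eIF3d (55.8%) and at 160 of 282 for eIF3g (56.7%). The median width of an eIF3a cluster was 24 nt (quartiles 22 and 27, range 10 to 113), and 12 were at least 40 nt wide. The widest was that of BTG1. In 34 genes eIF3a had more than 1 cluster, among them the mitochondrial 16S rRNA MT-RNR2 with 5, the angiomotin gene AMOT with 4, the fatty acid desaturase gene SCD with 4, and EIF3A and the eIF3 subunit gene EIF3M with 3 each. In 21 of these genes all the clusters were in the 5′ UTR.

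The 17 clusters of eIF3a alone lay in 16 genes, and in 11 of these no other subunit had a cluster anywhere in the gene. They held 672 reads, 4.44% of the eIF3a total, and 1 of them held more than all the others together. That one was the EIF3H 3′ UTR cluster (chr8:117671060-117671135, minus strand), with 370 reads, 18 conversions and a width of 75 nt, ranked 4 in the eIF3a list. The other 16 had under 50 reads. Their median with EIF3H included was 18 reads, against 33.5 for clusters that all 4 subunits shared and 14 for those with 1 partner.

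After EIF3H came SPRED1, an inhibitor of Ras signalling, with 40 reads in its 5′ UTR (chr15:38544654-38544674, plus strand). PKMYT1, a kinase that holds back entry into mitosis, had 34 in its 5′ UTR (chr16:3030359-3030380, minus strand), and SAT2, a relative of the spermidine acetyltransferase, had 31 (chr17:7531130-7531154, minus strand). ID4, an inhibitor of DNA binding by helix-loop-helix factors, had 23 reads in its 5′ UTR. Listed under MT-ND4L, a mitochondrial gene of respiratory complex I, were 2 clusters with 20 reads each, a name not checked against their positions. The histone gene HIST1H2AM, now H2AC17, had 16 reads in its coding exon. TCFL5, a transcription factor, had 11 reads and HOXA13, a homeobox gene, 10 at its start codon. C11orf73, now HIKESHI, a nuclear import carrier of heat shock proteins, had 8, and PSIP1, a chromatin-binding coactivator, 8. The last 2 sat at the lowest count of the table. With 11 reads TCFL5 had 1 conversion.

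In 5 genes the eIF3a cluster without overlap stood beside clusters of other subunits in the same gene. NLGN2, a synaptic adhesion protein, had 24 eIF3a reads 175 nt from an eIF3g cluster. BIRC5 had 18 in its coding exon (chr17:76210761-76210785, plus strand), 362 nt from the start codon cluster that all 4 subunits shared. CRKL, a signalling adaptor, had 15 reads 65 nt from an eIF3b cluster. The keratin gene KRT10 had 13 in its 3′ UTR 55 nt from an eIF3d cluster, and the deubiquitinase gene USP1 had 11 reads 471 nt from an eIF3b cluster. No eIF3a cluster without overlap came within 50 nt of a cluster of another subunit.

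Of the 17, 10 were in 5′ UTRs (58.8%, exact 95% interval 32.9 to 81.6), against 68.2% (63.1 to 73.0) of the overlapped eIF3a clusters. Coding exons held 4 (23.5%, 6.81 to 49.9) against 10.6%. The intervals overlap widely. None lay in an intron or a noncoding RNA, where 30 and 26 eIF3a clusters were overlapped.

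Clusters shared with only 1 other subunit gave the strongest further sites of limited overlap. The LIMCH1 intron (chr4:41602099-41602120, plus strand) had 677 reads in eIF3a and 587 in eIF3b, rank 2 and rank 6, and no cluster in eIF3d or eIF3g. STIP1, a co-chaperone of HSP90, had 56 reads at its start codon with 29 in eIF3g. An intron of VAC14, a regulator of phosphoinositide lipids, had 52 with 15 in eIF3d. The transcription factor gene ELF1 had 50 with 23 in eIF3b. The EIF3A cluster of 224 reads was overlapped by an eIF3b cluster only, but an eIF3d cluster of 2599 reads overlapped that eIF3b cluster in turn.

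To compare strength across lists, overlapping clusters were joined into loci, and the strongest cluster of each subunit was ranked over the 172 loci that all 4 subunits shared (rank 1 has most reads, and ties take their mean rank). A locus was called when its eIF3a rank lay beyond the ranks of all 3 others by at least 43 places, which is 25% of the loci. By this rule eIF3a stood above the others at 3 loci (1.74% of the loci) and below them at 6 (3.49%). The same rule gave 11 above and 11 below for eIF3b, 4 and 4 for eIF3d, and 15 and 9 for eIF3g. The median distance of a locus from the median rank of the other subunits was 20 places in eIF3a, and 23, 18 and 25.3 in eIF3b, eIF3d and eIF3g. Across the 172 loci, which share sites and filters, Spearman's rho of eIF3a reads was 0.675 with eIF3d, 0.572 with eIF3b and 0.436 with eIF3g, given as a description.

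The calls depended on the rule. With a margin of 10% of the loci 15 loci were above and 18 below, and with 50% none was. None differed by 4-fold from all 3 others after scaling each list by its median. With eIF3b, eIF3d or eIF3g left out, which also changes the loci ranked to 239, 197 and 191, 15, 13 and 6 loci were above and 19, 14 and 10 below. MTPN lost its call without eIF3b and without eIF3g, TSPAN18 lost its call without eIF3b, and both lost it when percentiles within each whole list replaced the ranks (2 above and 8 below).

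The 3 loci above were in a 5′ UTR of SRSF11, a splicing factor, an intron of CCDC97 and a 5′ UTR of MTPN, a regulator of actin capping. SRSF11 (chr1:70687244-70687267, plus strand) had 82 reads in eIF3a, and 20, 25 and 25 in eIF3b, eIF3d and eIF3g, rank 28.5 against 100.5, 115 and 105. The CCDC97 intron had 36, 10, 15 and 11 reads in the same order, rank 79 against 153.5, 152.5 and 163.5. The MTPN cluster (chr7:135662000-135662019, minus strand) had 76, 9, 40 and 25 reads, rank 33 against 160, 80 and 105. MTPN had a stronger neighbouring 5′ UTR cluster (chr7:135661944-135661993) with 116, 109, 103 and 128 reads, where eIF3a did not stand apart.

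Below the others stood a 5′ UTR of RHOA, a small GTPase of the cytoskeleton, with 11 reads in eIF3a, and 29, 25 and 47 in the other 3, rank 165 against 70.5, 115 and 51. RHOA had another eIF3a cluster of 34 reads. TSC22D3, a glucocorticoid-induced regulator, had 25, 103, 104 and 58 reads, and a 5′ UTR site of SCD had 17, 59, 63 and 34, while another SCD site had 69 reads in eIF3a. Introns of the homeobox gene PKNOX2 had 20, 92, 60 and 65 reads and of TSPAN18, a tetraspanin, 43, 114, 117 and 153. RP6-99M1.2, annotated as long intergenic RNA, had 20, 43, 45 and 50 at 1 of its sites. Which RNA the reads of that site came from was not checked.

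**Figure D3:**
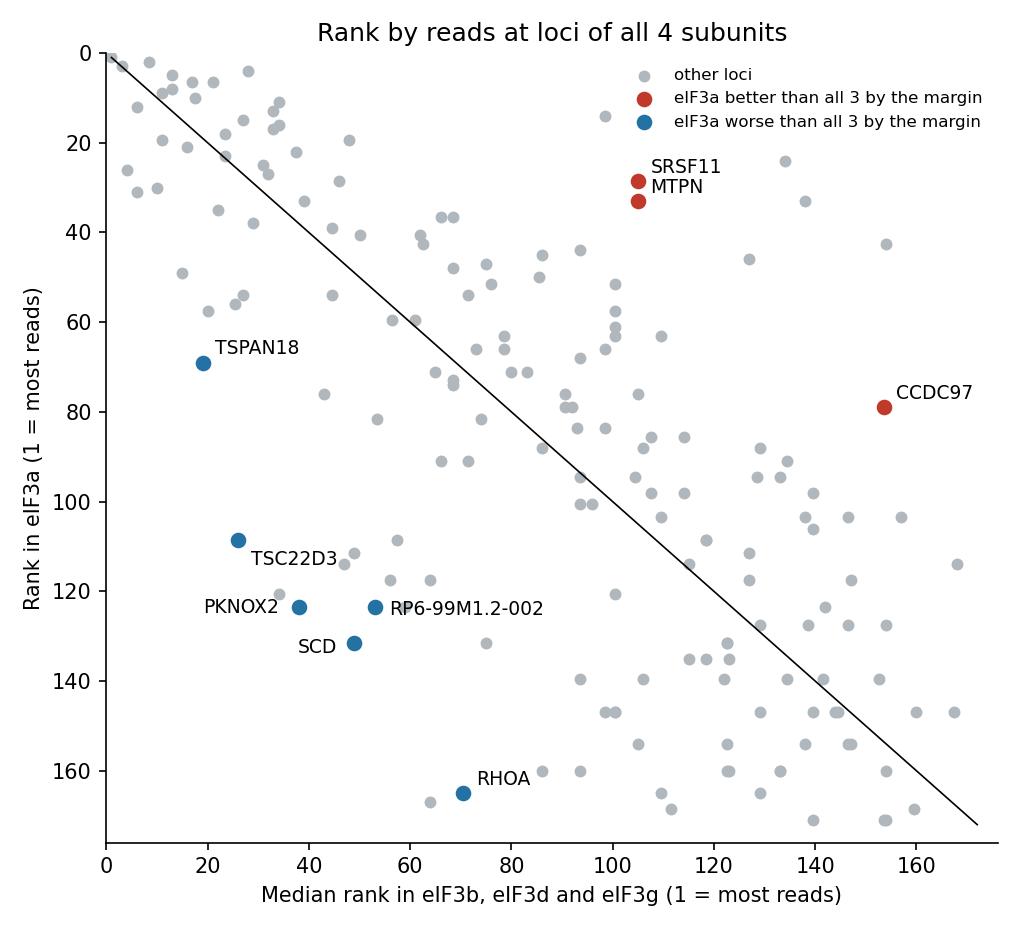
Rank by reads in eIF3a (vertical, 1 at the top) against the median rank in eIF3b, eIF3d and eIF3g (horizontal) at the 172 loci of all 4 subunits, with the line of equal rank. The 3 loci in red (SRSF11, MTPN, CCDC97) ranked at least 43 places above, and the 6 in blue at least 43 places below, every other subunit.

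Measured against the median of the other ranks, some loci moved further but shared their place with 1 subunit. RBM39, a splicing coactivator, had 60 reads in eIF3a and 45 in eIF3b but 14 in eIF3d and 13 in eIF3g, 111.5 places above that median. An intron of SUN1, a nuclear envelope protein, had 89 and 117 against 14 and 18 (110 places), and EIF5, the initiation factor that activates the GTPase of eIF2, had 76 and 82 against 15 and 17 (105 places). RNA5-8SP2 had 132 and 395 against 23 and 26 (84.5 places). At these 4 loci eIF3a and eIF3b were both high and eIF3d and eIF3g both low. RANGAP1, the Ran GTPase activator, had 57 reads in eIF3a and 41 in eIF3d against 14 in eIF3b and 11 in eIF3g (81 places).

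The steepest falls ran the other way. The vault RNA VTRNA1-2 had 10 reads in eIF3a and 8 in eIF3b but 45 in eIF3d and 171 in eIF3g, a difference of -103 places from the median rank of the others. ATP1B3, a subunit of the sodium pump, had 21 and 17 against 79 and 173 (-86.5 places). Further falls were a coding site of ZNF503, a zinc finger repressor (-74 places), AKR1A1, an aldehyde reductase (-67), and an intron of RBBP6, a ubiquitin ligase (-66.5). Smaller gains were RPL38, a ribosomal protein (54 places), and the coding exon of ARF4, a small GTPase of the Golgi (53.5). By annotation, the median difference, positive where eIF3a stood higher, was 7.5 places at 120 loci in 5′ UTRs, 13 at 8 start codons and 8.5 at 4 loci in 3′ UTRs. It was -28.5 places at 14 introns, -23.5 at 16 noncoding loci and -6 at 10 coding loci. Ranks within a list are relative, so a class can sit higher in eIF3a because other classes sit lower.

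Of the 181 genes listed for eIF3b, eIF3d and eIF3g together, 20 had no eIF3a cluster, which is 11.0% (exact 95% interval 6.88 to 16.5). The same count for the other subunits, each against the remaining 3, was 55 of 216 (25.5%) missing from eIF3b, 22 of 183 (12%) from eIF3d and 16 of 177 (9.04%) from eIF3g. The eIF3a share was near those of eIF3d and eIF3g.

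The largest missing genes were snoRNA hosts. SNHG1 had 13 reads in its strongest eIF3b cluster, 377 in eIF3d and 14879 in eIF3g, and GAS5 had 16, 324 and 6165. Both were weak in eIF3b too, where the counts were near the lowest that the table holds. A mitochondrial site annotated in the piwi class, FR025691, had 14, 38 and 325, and this class was not checked against its position. Introns followed another order: IWS1, a transcription elongation factor, had 600 reads in eIF3b but 12 and 10 in eIF3d and eIF3g. ZNF750, an epidermal transcription factor, had 231, 21 and 76, and ANK3, the ankyrin of axon initial segments, had 70, 13 and 22. None of these 6 had an eIF3a cluster.

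The other 14 were moderate or weak. PTBP1, a splicing repressor, had 46, 10 and 15 reads in eIF3b, eIF3d and eIF3g. TAF7, a subunit of TFIID, had 41, 13 and 19, and ALAS1, the first enzyme of haem synthesis, had 16, 11 and 44. PFN1, the actin-binding profilin, had 11, 25 and 22. SNRPD3, an Sm protein of the spliceosome, had 15, 16 and 18, and SRSF3, a splicing factor, had 12, 11 and 20. The others were SERP1, HIST1H2BN, DMTF1, RP11-1094M14.11, SSBP1, PPP2R2A, ATP2A2 and METTL23, with 8 to 29 reads.

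In 18 of the 20 genes at least 1 of the other subunits had a strongest cluster under 16 reads, SNHG1 and IWS1 among them, against 68 of the 161 genes of all 4 subunits (42.2%). In 11 of the 20 every other subunit had under 32 reads, against 48 of the 161 (29.8%). The median strongest cluster in eIF3b, eIF3d and eIF3g was 14, 17.5 and 19.5 reads in the missing genes, against 25, 37 and 29 in genes of all 4 subunits. When clusters under 16 reads were left out of the other 3 lists but not of eIF3a, 2 of 95 genes were missing, GAS5 and ZNF750. By loci in place of genes, 23 were missing, and 4 of these lay in genes with an eIF3a cluster elsewhere: RNA5-8SP2, CBX3, COA1 and RRAGA.

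**Figure D4:**
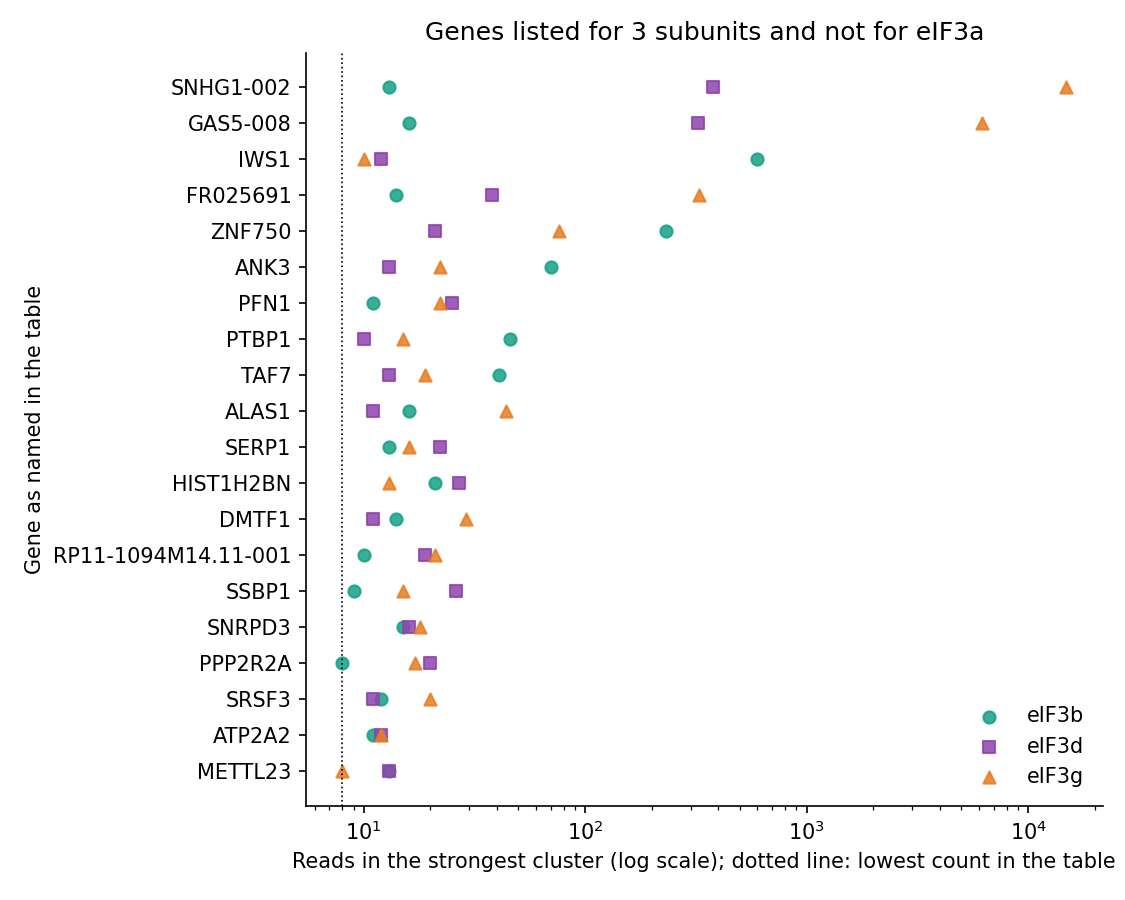
Reads in the strongest cluster (log scale) of eIF3b (circles), eIF3d (squares) and eIF3g (triangles) for the 20 genes with no eIF3a cluster, in order of summed reads. The dotted line marks 8 reads, the lowest count in the table; SNHG1 and GAS5 reach 14879 and 6165 in eIF3g, and most other points lie within 8 to 50.

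The eIF3a clusters carried 13874 conversions. The median was 1.02 conversions per read (quartiles 0.912 and 1.14), and 275 of the 375 clusters (73.3%) had 0.75 to 1.25. Outside this band, 26 clusters had 0.25 to 0.75 and 31 had 1.25 to 1.75. Beyond these, a low tail held 24 clusters (6.4%) under 0.25, and a high tail held 19 at 1.75 or more. A count of 1 conversion was given for 7 clusters, and 44 clusters had as many conversions as reads.

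The low tail held 8 clusters in noncoding RNA, 7 in coding exons, 6 in 5′ UTRs, 2 in 3′ UTRs and 1 in an intron, with a median of 43 reads. It took in several of the strongest sites. EIF3H had 0.0486 conversions per read, the EIF3A cluster of 224 reads 0.067, BTG1 0.108, EIF3M 0.12, a second EIF3A cluster 0.124 and TPT1 0.128. Also low were an intron cluster listed under MCM7 (0.113) and the RNA of ribonuclease P, RPPH1 (0.143). RP11-331F9.10, annotated as long intergenic RNA, had 0.0759. Low values were not particular to eIF3a at these sites: the matching eIF3b values were 0.123 at EIF3A, 0.22 at BTG1 and 0.0562 at EIF3M. For TPT1 they were higher, 0.474 in eIF3b and 0.351 in eIF3g. Clusters of the mRNAs of eIF3 subunits EIF3A, EIF3B, EIF3H and EIF3M held 922 eIF3a reads.

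The high tail held 12 clusters in introns, 4 in noncoding RNA, 2 in coding exons and 1 in a 5′ UTR, and 12 clusters had exactly 2 conversions for each read. Its strongest members were introns of CEP85 (1.99) and of SUPT3H, a subunit of the SAGA coactivator (1.99), RNA5-8SP2 (1.98), the coding exon of the mitochondrial chaperone HSPD1 (1.98) and the SUN1 intron (1.94). The same sites had 2.00, 1.98, 1.97 and 1.90 in eIF3b for CEP85, SUPT3H, RNA5-8SP2 and SUN1, and HSPD1 had 2.00 in eIF3g. Intron clusters had a median of 1.28, coding and 3′ UTR clusters 1.06 each, start codon clusters 1.02, 5′ UTR clusters 1.00 and noncoding clusters 0.864.

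**Figure D5:**
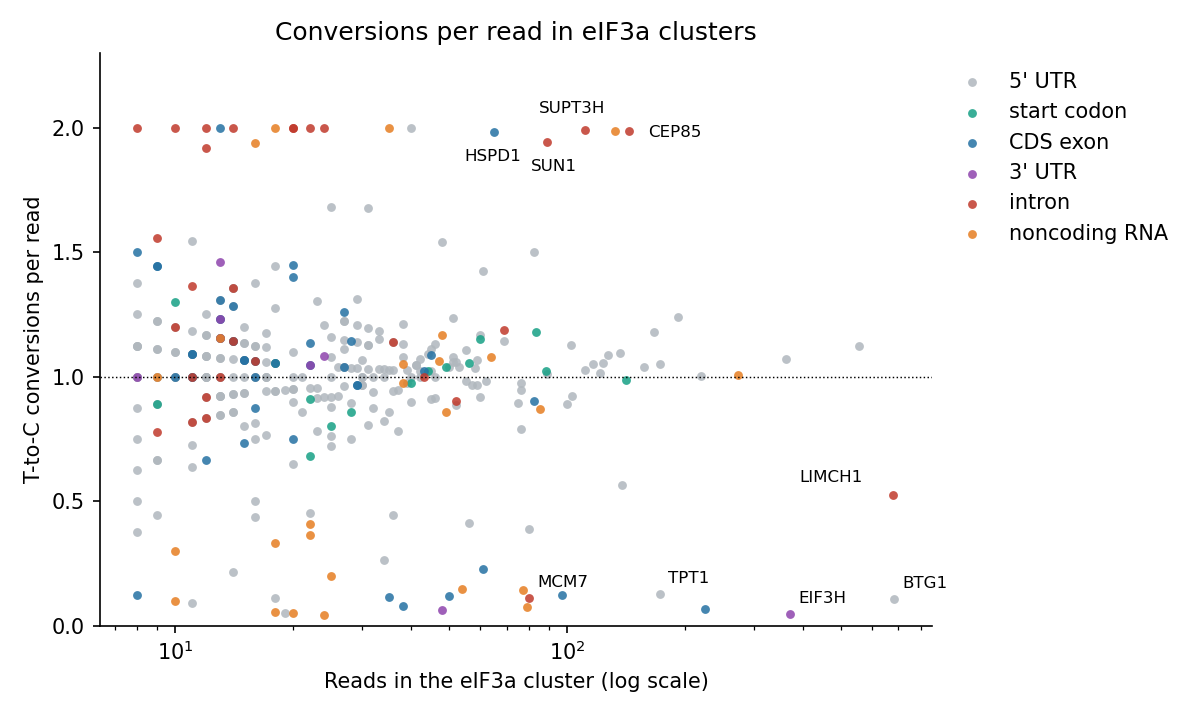
T-to-C conversions per read against reads (log scale) for the 375 eIF3a clusters, coloured by annotation, with a dotted line at 1. Most clusters lie at 0.75 to 1.25, EIF3H and BTG1 lie below 0.25 at high reads, and a band of mostly intron and noncoding clusters lies near 2.

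At the same loci, eIF3a conversions per read were close to those of eIF3b and eIF3g. Of the eIF3a clusters, 230 had an eIF3b cluster at the locus. Their medians were 1.03 in eIF3a and 1.08 in eIF3b, within 0.25 of each other at 181. For the 284 with an eIF3g cluster at the locus, medians were 1.03 and 1.05 in eIF3a and eIF3g, within 0.25 at 198. For the 299 eIF3a clusters with an eIF3d cluster at the locus, the median was 0.167 in eIF3d against 1.02 in eIF3a. The eIF3a value was higher at 298. The sources used here do not say what the conversion column of eIF3d counts, so this is a difference between deposited columns.

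By function, the lists drawn up from textbook groups were read against the 68.5% of all genes in the table that had an eIF3a cluster. Of translation genes outside eIF3, 8 of 9 listed genes had one, led by TPT1 (172 reads), EIF5 (101 over 2 clusters) and EIF4G3, a cap-complex scaffold (28). Of ribosomal protein genes it was 8 of 11, led by RPS15A (103), RPL24 (69, in an intron) and RPS4X (45). The 3 without were RPL10, RPL17 and RPL23A, listed for eIF3b alone, for eIF3d and eIF3g, and for eIF3g alone. Of eIF3 subunit genes it was 4 of 5, where EIF3K was listed for eIF3b alone.

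Splicing genes had an eIF3a cluster in 13 of 17 cases, led by DDX39B (361), U2AF2 (166 over 2 clusters), SNRPA (141) and SRSF11 (82). Histones had 10 of 14, led by H1FX (111). The 9 chaperone genes all had one, led by PTGES3 (192), HSPD1 (65) and STIP1 (65), and so did all 5 ubiquitin genes, led by UBE2D2 (554), UBB (60) and PSMD14, a deubiquitinase of the proteasome (52). Metabolic enzymes had 6 of 6, led by SCD (108 over 4 clusters), GLO1, a glyoxalase (76), and the glycolytic enzyme ENO1 (48). These lists are small, and with 68.5% of genes listed a full count of 5 or 6 is near the background.

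Cell cycle genes had 7 of 10, led by MCM7 (80), CCNG1, cyclin G1 (75), and CDC25A, a phosphatase that drives the cycle (34). The MCM7 cluster lay in an intron, and whether its reads came from MCM7 mRNA was not checked. Chromatin genes had 8 of 9, led by MORF4L2 (157) and BRD2, a bromodomain protein (59). Cytoskeletal genes had 6 of 8, Ras, 14-3-3, calcineurin and kinase signalling genes 5 of 7, and anti-proliferative genes 3 of 4. SnoRNA hosts had the lowest share of the lists with at least 5 genes, 6 of 12. Genes of that list present in eIF3a were DDX39B, RPL24, MCM7, SNHG15, DKC1 and NCL. Those absent were SNHG1, GAS5, GNL3, RPL10, RPL17 and RPL23A. Whether each gene of the list hosts a snoRNA was not tested. Of the mitochondrial and structured noncoding RNAs on the drawn-up list, 6 of 7 had an eIF3a cluster. MT-RNR2 had 186 eIF3a reads over its clusters against 132, 618 and 3790 in eIF3b, eIF3d and eIF3g. The median over genes of the strongest eIF3a cluster was 22 reads in all. The lists with at least 4 genes in eIF3a gave 137 in eIF3 subunit genes and 70.5 in structured and mitochondrial noncoding RNAs. It was 67 in cytoskeletal genes, 58.5 in snoRNA hosts, 52 in ubiquitin genes, 41 in splicing genes and 39 in chaperones. Metabolic enzymes had 36.5, chromatin genes 33.5, histones 30, ribosomal protein genes 27.5 and cell cycle genes 27. Ras, 14-3-3, calcineurin and kinase signalling genes had 26, and translation genes outside eIF3 had 19. None of 20 markers of other cell types was in the table. Of 14 markers associated with 293T cells only 1, IGF2BP1, was there, so these absences do not tell cell types apart.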

How the data were processed

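Values come from 1 table of clusters from 12 PAR-CLIP libraries. Read counts are whole numbers deposited by the authors without normalization, per the file headers, and pooled over replicates. The submitters' processing notes name cutadapt, Bowtie, bedtools and hg19, with no tool version. Not given in the sources used here are the cluster caller, its thresholds, the way replicates were pooled and whether positions count from 0 or 1, which are printed as deposited. Clusters overlapping by at least 1 nt on 1 strand were joined into loci, with start included and end excluded. Analysis used Python 3.11.15 with pandas 2.3.3, numpy 2.4.6 and scipy 1.17.1, and was tested on simulated data. Intervals are exact Clopper-Pearson at 95% and cover counting error only. With 1 pooled value per subunit no test was made. Depth per library is unknown.

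Genes named are the 20 eIF3a clusters with most reads, the 15 strongest without overlap, the 10 loci furthest above and the 10 furthest below the others by rank, the 20 largest missing genes, up to 4 per gene list, and the 5 highest and 5 lowest conversions per read at 50 reads or more. Others were chosen after their values were seen. Members and lists were chosen with earlier results of these data known. Of the genes of the eIF3a list, 315 of 328 matched a RefSeq table (GRCh38.p14), 30 by an older symbol. Alternatives changed the overlap, the rank margin, the read minimum, the subunits and the weighting.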

Additional observations from a re-analysis of the deposited data

How the results depend on the processing

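The 5′ UTR share in eIF3a stayed within its interval under all 3 alternatives, at 65.0 to 67.6%. Conversions per read stayed within the quartiles, with a median of 1.02 over clusters of at least 20 reads. Summed conversions over summed reads gave 0.917. The share without overlap was 3.2 to 5.07% under the other overlap rules, the read minimum and 5′ UTR clusters only. It rose when a subunit was left out, to 8.8% without eIF3b, 15.7% without eIF3d and 10.1% without eIF3g. Rank calls of eIF3a depended on the margin: 15 above and 18 below at 10% of the loci, 0 and 0 at 50% of them, and 0 and 0 at 4-fold after scaling by median reads. With percentiles within whole lists it was 2 and 8, without MTPN and TSPAN18. With a subunit left out, which changes both the comparison and the loci ranked, there were 15 and 19 without eIF3b (239 loci; MTPN and TSPAN18 lost), 13 and 14 without eIF3d (197; none lost) and 6 and 10 without eIF3g (191; MTPN lost). Among 5′ UTR loci ranked alone, chosen after seeing the data, 1 was above and 4 below, and MTPN was no longer called. With 16 reads as a minimum in the other subunits and not in eIF3a, missing genes went from 20 of 181 to 2 of 95. Including both end positions or requiring direct overlap, also chosen after seeing the data, left 3 above and 6 below, the same loci. No paired analysis was possible because the table has no replicate column, and leaving out each replicate was not run for the same reason. Depth is unknown and the lowest count listed is 8, so sites with fewer reads cannot be told from sites with none.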
